A study of Mus musculus with 6 samples.

Results

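Genes that make, carry, sense and remove retinoic acid were followed in cardiac fibroblasts after Cre-mediated loss of Tet3. They are the retinaldehyde dehydrogenases Aldh1a1, Aldh1a2 and Aldh1a3, the cellular binding proteins Crabp1 and Crabp2, the receptors Rara, Rarb and Rarg, and the hydroxylase Cyp26b1. Members were picked by name from the gene table, where all 9 symbols were found among 22063 genes. All 9 had enough counts to be among the 12862 genes tested. RNA-seq covered 6 libraries of primary fibroblasts isolated from hearts of Tet3 f/f mice, in which loxP sites flank part of both Tet3 copies. The GFP group (3 libraries) received an adenovirus carrying green fluorescent protein and the CRE group (3 libraries) received an adenovirus carrying Cre recombinase, which cuts out DNA between loxP sites. The labels name these genotypes Control and Tet3 knockout. Both groups were then exposed to TGF-β, the cytokine that drives fibroblasts towards contractile myofibroblasts. No cells kept free of TGF-β were analysed here, and the age of the mice, any pooling of animals and whether the libraries of a group came from separate animals or isolations are not given in the sources used here. Replicates in the figure with these data are described as biological, without saying what was replicated for the RNA-seq. P-values therefore measure the spread between these libraries, part of which may be technical.

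Retinoic acid is made from vitamin A (retinol) by oxidation, first to retinal and then, irreversibly, to the acid by ALDH1A enzymes. CRABP proteins carry it inside the cell, CRABP2 towards the nucleus, where RAR receptors paired with RXR partners switch target genes on. CYP26 enzymes hydroxylate and so remove it. In the heart the pathway is known from development, where ALDH1A2 in the epicardium (the outer cell layer, a source of cardiac fibroblasts) is a main source of the acid, and retinoids are known to restrain fibroblast activation in several tissues.

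Promoter sequences are shown first because TET3 oxidises methylated cytosine, which in mammals lies mostly at CpG, and because Rarb holds the best known binding site of the receptors. RefSeq promoter windows on GRCm38.p6, each 250 bases before to 50 bases after an annotated start, were found for 7 members (12 windows), and none was used for Aldh1a3 and Crabp2. CpG content differed widely between the enzymes. The window of Aldh1a2 (chr9:71215539-71215838, plus strand) held 50 CpG and the first window of Aldh1a1 (chr19:20492333-20492632, plus strand) held 3 (its second window held 1), against a median of 7 over 32851 windows. The Rarb window (chr14:16575427-16575726, minus strand) held 17. Capitals mark each CpG in the windows of Aldh1a2 and Aldh1a1, and in Rarb the DR5 element, a direct repeat of 2 receptor-binding hexamers spaced by 5 bases. Each hexamer reads A or G, then G, then G or T, then TCA.

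Aldh1a2: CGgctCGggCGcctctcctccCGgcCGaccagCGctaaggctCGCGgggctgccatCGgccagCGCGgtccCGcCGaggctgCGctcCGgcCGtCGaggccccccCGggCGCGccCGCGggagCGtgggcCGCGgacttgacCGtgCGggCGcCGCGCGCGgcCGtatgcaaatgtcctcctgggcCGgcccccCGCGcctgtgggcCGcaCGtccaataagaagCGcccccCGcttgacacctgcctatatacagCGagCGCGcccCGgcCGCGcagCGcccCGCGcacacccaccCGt
Aldh1a1: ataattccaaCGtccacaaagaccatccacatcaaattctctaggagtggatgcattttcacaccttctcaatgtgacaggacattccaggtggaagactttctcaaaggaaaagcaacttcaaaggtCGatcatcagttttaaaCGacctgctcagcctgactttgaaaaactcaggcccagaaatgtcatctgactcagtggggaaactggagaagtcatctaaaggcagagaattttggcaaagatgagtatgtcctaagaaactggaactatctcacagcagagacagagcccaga
Rarb: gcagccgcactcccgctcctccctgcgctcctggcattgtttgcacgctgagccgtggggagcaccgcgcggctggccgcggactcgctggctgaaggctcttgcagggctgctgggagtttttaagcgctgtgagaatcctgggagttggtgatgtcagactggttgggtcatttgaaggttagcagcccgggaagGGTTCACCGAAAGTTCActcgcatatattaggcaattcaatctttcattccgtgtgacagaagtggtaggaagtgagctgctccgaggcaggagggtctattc

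The DR5 element of Rarb lay between 53 and 37 bases before the start. The DR5 consensus, searched on both strands, was present in 1 of the 12 windows and in 0.0974% of all windows. A repeat spaced by 2 bases (DR2) was in none of the 12 and in 0.268% of all windows. The strict hexamer AGGTCA, read on either strand, was in 2 of the 12 windows (Rara and Rarg) and in 16.3% of all. The SMAD box CAGAC, the core bound by the transcription factors downstream of TGF-β and also searched on both strands, was in 5 of the 12 windows and in 49.6% of all. Windows with an observed over expected CpG ratio of at least 0.6 numbered 4 of 12 (Aldh1a2, Rarb and both overlapping upstream windows of Rara) against 35.8% of all. These matches describe sequence only, and methylation was not analysed here.

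The total gene count was between 17002126 and 20343590 per library. Tet3 itself, the targeted gene, gave 1044, 965 and 1000 counts under GFP against 642, 649 and 637 under CRE, a CRE mean of 60.8% of GFP in CPM (normalized read count, scaled to effective library size). Reads from the floxed exons were not counted apart from the rest of the gene. All 12 fibroblast markers were detected, with summed levels of 54931 to 56609 CPM in GFP and 29348 to 31663 CPM in CRE libraries, and 10 of them were lower in CRE. Of 8 cardiomyocyte markers, none exceeded 10 counts in a library, and Myh6 and Myl7 were at 0 throughout. Endothelial markers summed to between 369 and 416 CPM in GFP and between 181 and 208 CPM in CRE libraries (7 of 8 lower). Macrophage markers were 57.8 to 66.1 CPM and 34.1 to 37.4 CPM (3 of 5 tested lower), with Ptprc, the leukocyte antigen CD45, at 4 to 10 counts. Pericyte and smooth muscle markers were 68.1 to 76.9 CPM and 63.2 to 71.2 CPM (4 of 7 lower, 1 higher). The part of these cell types in the results below was not tested, and fewer cells of a type cannot be told apart from less RNA per cell.

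Retinoic acid genes fell or did not pass the test, and none rose. Of the 9 members, 5 passed as lower in CRE with adjusted p below 0.05 by the quasi-likelihood test of edgeR (Aldh1a1, Aldh1a2, Aldh1a3, Crabp2 and Rarg), and 4 did not pass (Rara, Rarb, Crabp1 and Cyp26b1). Across all tested genes 51.2% were called, 25.7% lower and 25.5% higher, so a share of 5 of 9 called is near the background. The same 5 members had all CRE libraries below all GFP libraries, whereas 59.6% of tested genes did not overlap in either direction. At the threshold used in the study's methods, which asks for unadjusted p below 0.05 together with a ratio above 1.5 or below 0.66, 4 members were called (Aldh1a3 no longer) against 17.8% of tested genes. The median log2 fold change of the members was -0.50 and that of all tested genes 0.01. The balance of directions depended on how libraries were scaled. With library size alone the median of all genes moved to 0.17 and 72.6% of calls were higher in place of 49.8%, while 5 members stayed lower and Rarb passed as higher.

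**Figure D1:**
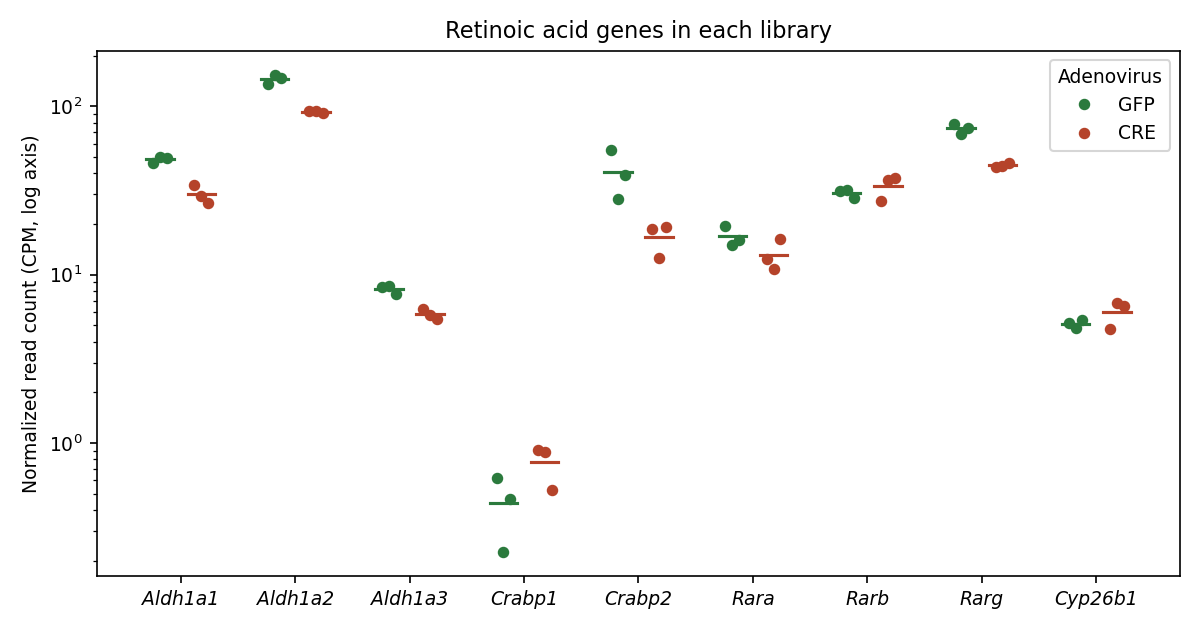
Normalized read count (CPM, log axis) of the 9 genes in each library, with GFP libraries in green, CRE libraries in red and a bar at each group mean (n = 3). The CRE libraries lie below all GFP libraries for Aldh1a1, Aldh1a2, Aldh1a3, Crabp2 and Rarg, and the groups overlap for Crabp1, Rara, Rarb and Cyp26b1.

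All 3 enzymes that make retinoic acid were lower after Cre. Aldh1a2 (ENSMUSG00000013584, chromosome 9, positions 71215789 to 71296243 in GRCm38, plus strand), the main enzyme of heart development, was at 135, 154 and 147 CPM in GFP replicates 1, 2 and 3 and at 93.3, 94.4 and 91.4 CPM in CRE replicates 1, 2 and 3. Its CRE libraries differed by little among themselves and lay well below the lowest GFP library. The mean fell from 145 ± 9.62 to 93.0 ± 1.53 CPM (SD, n = 3), or to 64.0%. EdgeR put the log2 fold change at -0.64 (SE 0.05, 95% interval -0.76 to -0.52, adjusted p 7.51e-06). Aldh1a1 (ENSMUSG00000053279, chromosome 19, positions 20492715 to 20643465, plus strand), the cytosolic enzyme widespread in adult tissues, was at 46.0, 49.8 and 49.5 CPM in GFP and at 34.3, 29.4 and 26.7 CPM in CRE libraries. Every CRE library was below the lowest GFP library, and the mean fell to 62.2%, a log2 fold change of -0.69 (SE 0.09, 95% interval -0.88 to -0.50, adjusted p 9.74e-05). Aldh1a3 (ENSMUSG00000015134, chromosome 7, positions 66390890 to 66427517, minus strand), known mainly from eye and nasal development, had the lowest FPKM of the enzymes. It had 136, 151 and 147 counts in GFP and 116, 104 and 103 in CRE libraries, and fell to 70.8% (log2 value -0.50, SE 0.12, adjusted p 0.00488).

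Proportions among the enzymes were close in both groups. On the FPKM scale, which divides by transcript length and so allows paralogs to be set side by side, Aldh1a2 made up 69.7% ± 0.79 of the summed Aldh1a FPKM in GFP and 70.1% ± 1.98 in CRE libraries (SD, n = 3). Aldh1a1 held 27.1% ± 0.79 and 26.6% ± 1.74, and Aldh1a3 3.19% ± 0.23 and 3.33% ± 0.26. None of these shares separated the groups (exact two-sided permutation p of 0.6 to 0.9, adjusted p 0.933 to 1 over 8 shares). The summed Aldh1a FPKM was 81.7, 91.4 and 88.2 in GFP and 63.8, 63.0 and 59.4 in CRE libraries, a CRE mean of 71.3% of GFP. FPKM carries no TMM scaling, and on log2(FPKM + 1) values the median of all tested genes lay at 0.13 in place of 0.01, and the CRE to GFP ratio of each of the 9 members was higher in FPKM than in CPM. Aldh1a7, a rodent copy of Aldh1a1 beside it on chromosome 19 (positions 20692953 to 20727562), could share reads with it. It had only 2 to 17 counts per library against 506 to 954 for Aldh1a1, and its log2 fold change of -1.35 (SE 0.53, adjusted p 0.0570) passed without CRE replicate 3 (-2.30, adjusted p 0.0103) and in limma-voom (-1.56, adjusted p 0.0341).

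Because ALDH1A2 marks the epicardium, epicardial and mesothelial markers were read beside it. Their sum was 127 to 133 CPM in GFP and 83.7 to 87.1 CPM in CRE libraries, and 4 of 11 tested markers were lower and 4 higher. Wt1 and Tbx18, transcription factors of the epicardium, had log2 fold changes of -2.10 (SE 0.21, adjusted p 2.02e-05) and -0.85 (SE 0.05, adjusted p 6.70e-07). The keratins Krt18 and Krt19 and the uroplakins Upk1b and Upk3b, markers of mesothelium, were higher, at log2 fold changes of 1.65, 1.79, 1.34 and 0.75 and group means of at most 4.82 CPM, the groups overlapping at 54 counts for Upk3b. Other markers of the list went the other way or did not pass: Gpm6a and Lrp2 were lower (-2.11, adjusted p 1.05e-05, and -1.23, adjusted p 0.00293), and Bnc1, Lrrn4 and Sema3d did not pass (0.06, 0.07 and -0.24, adjusted p 0.835, 0.909 and 0.0621). The part of such cells in the Aldh1a2 result was not tested.

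Crabp2 fell furthest of the members. Crabp2 (ENSMUSG00000004885, chromosome 3, positions 87948666 to 87953376, plus strand), the carrier that hands retinoic acid to RARs, was at 55.2, 28.2 and 39.3 CPM in GFP and at 18.7, 12.6 and 19.2 CPM in CRE libraries. The GFP libraries spread widely, yet the lowest of them was above the highest CRE library. Its CRE mean was 41.1% of GFP and its log2 fold change -1.28 (SE 0.22, 95% interval -1.78 to -0.78, adjusted p 0.00091). The value was -1.01 without GFP replicate 1, the highest library, and -1.49 without GFP replicate 2, and it passed in all 16 refits (other scalings, filters, tools, units, a replicate block or a library left out). Crabp1 (ENSMUSG00000032291, chromosome 9, positions 54764748 to 54773110, plus strand), the paralog often linked to breakdown of the acid, was close to the limit of detection, with 10, 4 and 9 counts in GFP and 17, 16 and 10 in CRE libraries. The groups overlapped, and a log2 fold change of 0.82 (SE 0.43, 95% interval -0.13 to 1.77) did not pass (adjusted p 0.134). Limma on log2(FPKM + 1) and on log2(FPKM + 0.1) values did call it (0.42 and 0.91 on those scales, adjusted p 0.0385 and 0.0472). At these depths a count of 0 would allow between 0.156 and 0.186 CPM, counting error only.

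Crabp2 held nearly all of the Crabp FPKM in both groups, 98.8% ± 0.24 in GFP and 94.7% ± 2.24 in CRE libraries (SD, n = 3). The share of Crabp1 was 1.29%, 0.919% and 1.36% in GFP and 5.37%, 7.56% and 3.09% in CRE libraries, with no overlap between groups. An exact two-sided permutation test gave p = 0.1, the smallest that 3 against 3 libraries allow, and adjusted p = 0.2 over the 8 shares, so no share could pass. The mean summed Crabp FPKM in CRE libraries was 47.8% of that in GFP libraries (exact permutation p = 0.1).

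Among the receptors Rarg fell, and Rarb and Rara did not pass the test. Rarg (ENSMUSG00000001288, chromosome 15, positions 102234938 to 102257517, minus strand), the RAR with the highest FPKM here and an isotype known from skin and cartilage, was at 78.8, 68.8 and 74.5 CPM in GFP and at 43.8, 44.0 and 46.3 CPM in CRE libraries. The groups were far apart relative to their spread, and the mean fell to 60.4%, a log2 fold change of -0.73 (SE 0.06, 95% interval -0.86 to -0.60, adjusted p 6.39e-06). Rarb (ENSMUSG00000017491, chromosome 14, positions 16430839 to 16819156, minus strand), itself a classical target of the receptors through the DR5 element printed above, was at 31.4, 32.1 and 28.7 CPM in GFP and at 27.4, 36.4 and 37.7 CPM in CRE libraries. CRE replicate 1 lay below the GFP libraries and the other CRE libraries above them. The log2 fold change of 0.14 (SE 0.11, 95% interval -0.10 to 0.38) did not pass (adjusted p 0.314). It passed without CRE replicate 1 (0.27, adjusted p 0.0140) and with library size alone (0.30, adjusted p 0.0374), but was smaller without CRE replicate 3 (0.06, adjusted p 0.720), without CRE replicate 2 (0.09, adjusted p 0.595) and without GFP replicate 3 (0.09, adjusted p 0.601). Rara (ENSMUSG00000037992, chromosome 11, positions 98927818 to 98974942, plus strand), the broadly expressed isotype, was at 19.6, 14.99 and 16.0 CPM in GFP and at 12.4, 10.8 and 16.3 CPM in CRE libraries. CRE replicate 3 fell among the GFP libraries, and the log2 fold change of -0.35 (SE 0.15, 95% interval -0.69 to -0.01) did not pass (adjusted p 0.0765). It passed in DESeq2 (-0.36, adjusted p 0.0484) and without CRE replicate 3 (-0.53, adjusted p 0.0113), but was smaller with library size alone (-0.19, adjusted p 0.305), without CRE replicate 2 (-0.22, adjusted p 0.251) and without GFP replicate 1 (-0.24, adjusted p 0.204).

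**Figure D2:**
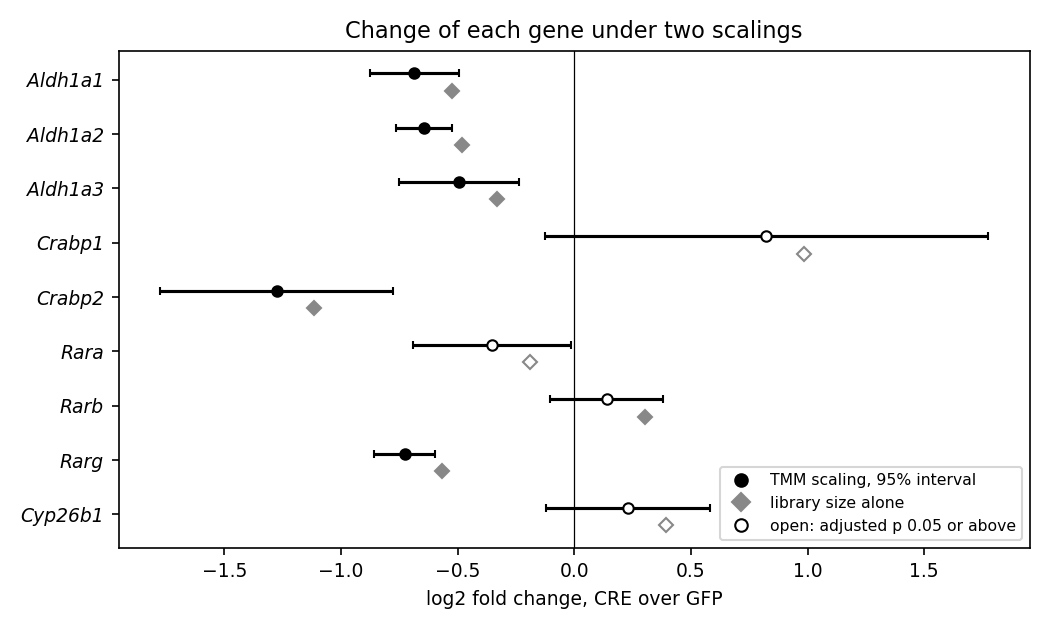
Log2 fold change of each gene, CRE over GFP, with its 95% interval under TMM scaling (black circles) and the value with library size alone (grey diamonds); open symbols have adjusted p at or above 0.05. Library size alone shifts every gene to the right by a similar amount, which turns no sign and takes Rarb past the threshold.

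Rarb and Rarg also stood in different proportion. Rarb made up 26.4%, 27.0% and 24.2% of the summed Rar FPKM in GFP and 34.7%, 40.3% and 37.8% in CRE libraries. Rarg made up 58.0%, 59.9% and 61.4% in GFP and 49.98%, 47.6% and 46.2% in CRE libraries. These shares are ratios within a library and do not depend on the scaling between libraries. Neither share overlapped between groups, with CRE minus GFP differences of 11.7 points for Rarb and -11.8 points for Rarg, again at the smallest exact permutation p possible (0.1, adjusted p 0.2). The share of Rara was 14.4% ± 1.24 in GFP and 14.5% ± 2.12 in CRE libraries (SD, n = 3, exact permutation p of 1). The summed Rar FPKM was 41.8 ± 2.42 in GFP and 34.6 ± 2.61 in CRE libraries (SD, n = 3), or 82.6%. Rarb counts carry a limit, since 1793 of its 5265 annotated exon bases (34.1%) overlap exons of Top2b on the opposite strand, and whether reads were counted by strand is not stated. Top2b, a DNA topoisomerase, had more reads, at 242 CPM in GFP and 227 CPM in CRE libraries, with a log2 fold change of -0.09 (SE 0.04, adjusted p 0.102).

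**Figure D3:**
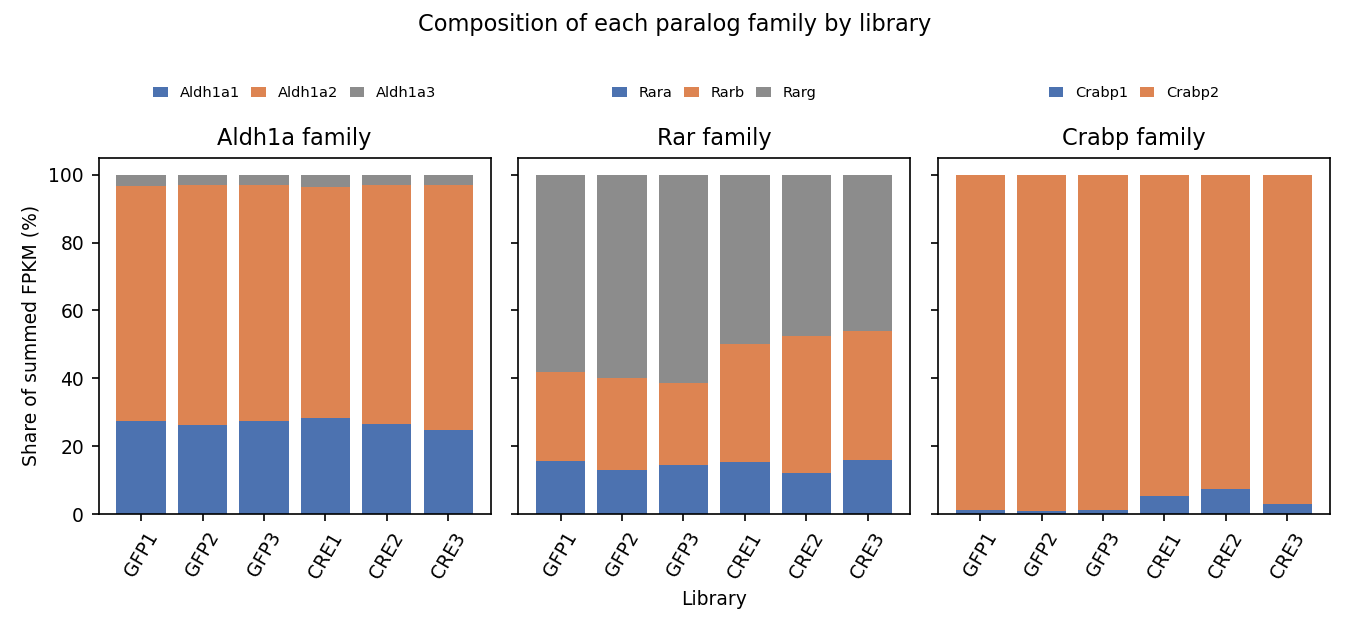
Share of the summed FPKM (%) held by each paralog of the Aldh1a, Rar and Crabp families in each of the 6 libraries, as stacked bars. The Aldh1a bars are alike in all libraries, Rarb is wider and Rarg narrower in every CRE library, and Crabp1 lies between 0.919% and 1.36% in GFP and between 3.09% and 7.56% in CRE libraries.

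The tested enzyme of retinoic acid removal did not pass. Cyp26b1 (ENSMUSG00000063415, chromosome 6, positions 84571414 to 84593908, minus strand) was at 5.16, 4.79 and 5.35 CPM in GFP and at 4.73, 6.75 and 6.49 CPM in CRE libraries. CRE replicate 1 was the lowest of all libraries and the other CRE libraries were the highest, as for Rarb. The log2 fold change of 0.23 (SE 0.16, 95% interval -0.12 to 0.58) did not pass (adjusted p 0.249), nor did it in any of those 16 refits. Tet3 lies 1.11 Mb from Cyp26b1 on chromosome 6. The other hydroxylases, Cyp26a1 and Cyp26c1, had at most 4 and 7 counts in a library and were not tested.

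The order of the members by FPKM was identical in both groups. In GFP libraries it ran from Aldh1a2 (60.7 FPKM) over Crabp2 (41.5), Rarg (25.0), Aldh1a1 (23.6), Rarb (10.8), Rara (6.02), Aldh1a3 (2.77) and Cyp26b1 (1.10) to Crabp1 (0.516). The ranges of neighbours in that order did not overlap in GFP libraries. In CRE libraries Rarg (16.1 to 17.2 FPKM) overlapped both neighbours, Crabp2 (14.3 to 21.8 FPKM) and Aldh1a1 (14.8 to 18.1 FPKM), and so did Cyp26b1 (1.14 to 1.64 FPKM) and Crabp1 (0.696 to 1.20 FPKM) with each other. The mean FPKM of Aldh1a2 over all 6 libraries exceeded that of 89.3% of tested genes.

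Other genes of the pathway, listed by role, moved in both directions. Of 92 listed genes 90 were in the table and 63 were tested. Of these, 14 were higher and 21 lower, which is 35 of 63 against the background of 51.2%, with a median log2 fold change of -0.05. With library size alone the split was 20 higher and 17 lower.

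Supply of retinol and retinal gave mixed values. Among 7 tested retinol carriers and storage genes, Bco1, a carotenoid-cleaving enzyme at 3 to 16 counts, was the 1 higher gene (1.14, SE 0.42, adjusted p 0.0409). Bco1 passed only without GFP replicate 3 among the fits that each left out a library (adjusted p 0.0432), and not in DESeq2 (adjusted p 0.129). Stra6, the membrane receptor for retinol uptake, had at most 4 counts in a library. Of 17 tested retinol and retinal oxidoreductases 6 were higher and 4 lower (median of 0.06). Rdh10, which oxidises retinol to retinal and feeds the ALDH1A step, was at 13.9, 17.7 and 16.4 CPM in GFP and at 18.7, 23.0 and 21.4 CPM in CRE libraries, a log2 fold change of 0.39 (SE 0.11, adjusted p 0.0115). Dhrs3, which turns retinal back into retinol and is itself induced by retinoic acid, was at 89.6, 71.7 and 81.3 CPM in GFP and at 36.2, 32.6 and 41.3 CPM in CRE libraries, a log2 fold change of -1.14 (SE 0.10, adjusted p 8.12e-06). The groups did not overlap for either gene. Other enzymes of the list that passed did not share 1 direction by role. Rdh14, Akr1b10 and Dhrs4, known as retinal reductases, were higher (0.52, 0.47 and 0.25, adjusted p 0.00266, 0.00579 and 0.0183), and Rdh11, also a retinal reductase, and Akr1b8 were lower (-0.23 and -0.18, adjusted p 0.00334 and 0.00913). Dhrs4 did not pass in DESeq2 (adjusted p 0.0615), without GFP replicate 1 (adjusted p 0.0596) or without CRE replicate 1 (adjusted p 0.0538), and neither Rdh11 nor Akr1b8 passed with library size alone (-0.06 and -0.02, adjusted p 0.298 and 0.740) or on either FPKM scale. Akr1b3 (aldose reductase) and Dhrs9 were higher (0.87 and 0.86), and Adh1 was lower (-0.77, SE 0.24, adjusted p 0.0196). Dhrs9 did not pass without GFP replicate 2 or without CRE replicate 2 (adjusted p 0.0515 and 0.0623). Adh1, at 24 to 47 counts, did not pass in 4 of the 6 fits that each left out a library (adjusted p 0.0514 without GFP replicate 1, 0.0552 without GFP replicate 2, 0.0690 without CRE replicate 1 and 0.0704 without CRE replicate 3).

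**Figure D4:**
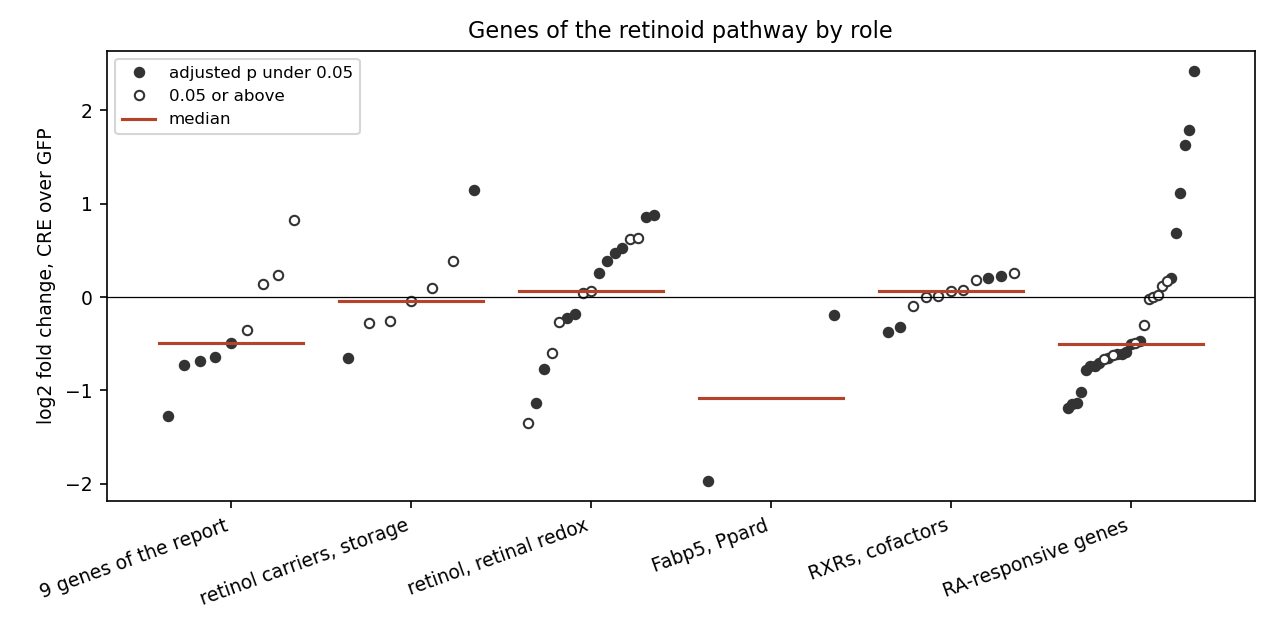
Log2 fold change, CRE over GFP, of tested genes by role in the retinoid pathway, sorted within each role; filled points have an adjusted p under 0.05 and the red line is the median. Medians are -0.50 for the 9 members, -0.05, 0.06, -1.08 and 0.06 for the next roles and -0.50 for genes known to respond to retinoic acid.

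An alternative carrier was lower by far more than its spread. Fabp5, which can bring retinoic acid to PPARδ in place of CRABP2 and RAR, had 476, 457 and 551 counts in GFP and 132, 124 and 142 in CRE libraries. This was a log2 fold change of -1.97 (SE 0.09, adjusted p 2.53e-07), and the groups were widely apart. Ppard, the receptor, was lower by a small amount (-0.19, SE 0.06, adjusted p 0.0313) that did not pass with library size alone (-0.03, adjusted p 0.751), in DESeq2 (adjusted p 0.0903), on either FPKM scale (adjusted p 0.357 and 0.353), or without GFP replicate 2 or any of the CRE replicates (adjusted p 0.0690 to 0.117). Among RXR partners, Rxra was lower (-0.37, SE 0.06, adjusted p 0.000300), although not on log2(FPKM + 1) or log2(FPKM + 0.1) values (-0.07 on either scale, adjusted p 0.293 and 0.288). Rxrb did not pass (0.18, SE 0.08, adjusted p 0.0769) but did with library size alone (0.34, adjusted p 0.00352), on both FPKM scales (0.31 and 0.34, adjusted p 0.00796 and 0.00716) and without CRE replicate 3 (0.24, adjusted p 0.0372). Rxrg had at most 2 counts in a library. Of 11 tested RXRs and cofactors 2 were higher and 2 lower.

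Genes known to respond to retinoic acid, the 9 members left aside, had a median log2 fold change of -0.50, with 14 of 29 tested genes lower and 6 higher, against 25.7% lower and 25.5% higher over all tested genes, whose median was 0.01. Of the 43 genes listed, 5 were at 0 in every library (Cebpe, Epo, Fgf8, Hoxb1 and Stra8). Homeobox and nuclear receptor genes were among the lower ones. Meis1, Hoxb3 and Hoxa3 had log2 fold changes of -0.74, -0.74 and -1.19, and the orphan receptors Nr2f1 and Nr2f2 of -1.02 (SE 0.13) and -0.59 (SE 0.06). The cardiac factors Gata4 and Tbx5 had values of -0.61 (SE 0.05) and -0.78 (SE 0.20), and the transglutaminase Tgm2 of -0.71 (SE 0.11). Tbx5 did not pass on log2(FPKM + 0.1) values (-0.42, adjusted p 0.0566). The higher ones included Egr1 (2.42, SE 0.06), Btg2 (1.62, SE 0.09) and Dusp6 (0.69, SE 0.08), which are known as immediate early or feedback genes that answer many stimuli, and Ret (1.79, SE 0.16), a receptor tyrosine kinase. The list holds Dhrs3, which is also counted above.

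The genes closest in pattern were sought among 12204 others with a mean of at least 1 CPM, as the root mean square difference of centred log2(CPM + 0.5) over the 6 libraries. For Crabp2 these were Adra2a (0.17), G0s2 (0.17) and Acot2 (0.18), at log2 fold changes of -1.79, -1.18 and -1.04. Aldh1a2 was matched more closely, by Nfkbiz (0.037), N4bp2 (0.038) and Ppa2 (0.038), at log2 fold changes of -0.69, -0.64 and -0.61.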

How the data were processed

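RNA-seq was analysed for 3 GFP and 3 CRE libraries, grouped by sample title. Reads were trimmed (Trimmomatic), mapped to GRCm38 (HISAT2) and counted per gene (HTSeq-count) by the authors, as the methods state. The authors deposited these raw counts, which were not normalized, beside FPKM from Cufflinks. Tool versions and the strand setting are not given in the sources used here, and the labels and the methods name different library kits. The authors' columns of fold changes, p-values and group mean FPKM were not used.

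Counts were tested in R 4.3.3 with edgeR 4.0.16 across all genes kept by filterByExpr (minimum count 10, minimum total 15), with TMM scaling, the two-sided quasi-likelihood test and Benjamini-Hochberg adjustment. SE is the absolute log2 fold change over the square root of F, and 95% intervals use the t distribution at the fit's degrees of freedom. Exact permutation tests covered all assignments of the libraries. The test was checked on simulated data in which far fewer genes changed than were called here, in equal numbers up and down. That check therefore does not cover the dependence on scaling. Alternatives used DESeq2 1.42.0, limma 3.58.1, other scalings, filters and units, and each library left out. Gene positions are from GENCODE M21 (GRCm38), and figures were drawn with matplotlib 3.10.9. Named pathway genes are those with an adjusted p under 0.05, a fold change of at least 1.5 and a mean of at least 1 CPM, plus 10 chosen for their role, and some of these are not reported here. Other genes were named after their values were seen. The members and lists were chosen with earlier results of these data known. The limit given for a count of 0 covers counting error only.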

Additional observations from a re-analysis of the deposited data

How the results depend on the processing

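The number of members past the threshold was 5 in the analysis reported and between 4 and 6 in the alternatives, with 5 lower in each except the study's threshold (4) and the fits that also called Rara. Each of the 5 lower members passed in all 16 refits, with log2 fold changes from -0.79 to -0.49 for Aldh1a1, -0.70 to -0.47 for Aldh1a2, -0.55 to -0.30 for Aldh1a3, -1.49 to -1.01 for Crabp2 and -0.78 to -0.57 for Rarg. No member changed sign. Crabp1 could not be tested where at least 10 counts were required in every library. The number of pathway genes past the threshold (35) went to 23 (8 higher, 15 lower) at the study's threshold, which adds a fold limit, and lay between 30 and 37 otherwise.

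Deviations from the group mean correlated at 0.03, 0.21 and -0.04 between libraries with the same number. Mean correlations with the other numbers were -0.01, -0.11 and 0.02. With 3 libraries in each group, these values cannot decide whether the numbers pair the libraries. With the replicate number as a block 6 members were called, Rara being added (-0.36, adjusted p of 0.0443), and 34 pathway genes. Differences in share between groups kept their direction with 0.1 added to FPKM and with CPM. When each library was left out they ran from -0.66 to 1.32 points for Rara, -1.44 to 0.31 for Aldh1a1, -0.52 to 1.44 for Aldh1a2 and -0.0083 to 0.25 for Aldh1a3, so none of these 4 has a stable sign. They stayed between 10.4 and 13.2 points for Rarb and between -12.9 and -11.0 for Rarg. Windows with a CpG ratio of at least 0.6 numbered 4, and 3 when each window began 150 bases before the start, where Rarb (0.513) and the first window of Rara (0.597) fell below that ratio and Crabp1 (0.602) came above it. Depth limits Crabp1 most, at 4 to 17 counts.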
